A study of Mus musculus with 6 samples.

Results

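The 10 imprinted genes Magel2, Ndn, Snrpn, Dlk1, Peg3, Gnas, Grb10, Nnat, Cdkn1c and Mest were followed in the arcuate nucleus (ARC) of the hypothalamus. They were taken from the table by matching its Ensembl identifiers to these symbols. All 10 were found among the 22322 genes of the table. Male mice received normal chow with 16.5% fat (NCD) or high-fat food with 60% fat (HFD) for 16 weeks from 4 weeks of age, and the ARC was cut from brain sections of 20 μm by laser capture microdissection (LCM). No strain, transgene or other treatment is given in the labels of these samples, and the number of mice behind each sample is not stated in the sources used here. RNA-seq of poly(A) RNA gave 3 samples per diet, named here NCD1 to NCD3 and HFD1 to HFD3 after the numbers in their titles. P-values measure the spread between these samples, which may be technical in part. The total counts were 15925648, 9937632 and 6882449 in NCD1, NCD2 and NCD3, and 8024664, 10479778 and 5171381 in HFD1, HFD2 and HFD3.

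Genomic imprinting is the expression of a gene mainly from the copy inherited from 1 parent, set by DNA methylation laid down in the germ line. Imprinted genes lie in clusters, each ruled by a control region. Many are expressed in the hypothalamus, where loss of the paternal copies of the Prader-Willi cluster goes with disordered feeding and hypogonadism. RNA-seq counts without allele information give the sum of both parental copies, so imprinting itself was not measured. In tissue samples, fewer cells of a type and less RNA per cell cannot be told apart.

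The tissue carried the RNA of ARC neurons. Pomc, the precursor of the satiety peptide alpha-MSH, had 560, 1209 and 500 CPM (counts relative to the library total, here always scaled with TMM factors) in NCD1, NCD2 and NCD3 and between 556 and 651 CPM in HFD. Agrp, the orexigenic peptide, lay between 27.2 and 87.3 CPM over the 6 samples. Kiss1, which marks the kisspeptin neurons of the region, was at 0 counts in NCD1 and HFD1 and reached at most 42 counts in HFD3. The counts of 0 allow up to 3 counts, or 0.180 CPM in NCD1 and 0.372 CPM in HFD1. Neighbouring tissue was present too. Avp, the vasopressin gene of magnocellular neurons, stood at 2382, 4888 and 1961 CPM in the NCD samples and at 1048, 944 and 830 CPM in the HFD samples, with no overlap. Its log2 fold change in HFD was -1.71, with an adjusted p of 0.194 by edgeR's quasi-likelihood test with Benjamini-Hochberg adjustment. Oxt, the oxytocin gene of magnocellular neurons, had a log2 fold change of -0.87, with an adjusted p of 0.999 by the same test. In their list of magnocellular, paraventricular and suprachiasmatic markers, 7 genes were tested. Of these, 5 had a fold change below 0 and 2 above, Trh at 0.51 and Otp at 0.36. Trh separated the diets without overlap, with an unadjusted p of 0.0374 and an adjusted p of 0.999 by the same test. Avp, Oxt and Trh had an unadjusted p under 0.05 (42.9% of the 7, against 2.3% of all genes tested). Of the 14 ARC neuron markers listed, 3 (21.4%, against 2.3% of all genes tested) had an unadjusted p under 0.05, with log2 fold changes of 0.75 for Cartpt, 0.70 for Gal and 0.60 for Tac2, each with an adjusted p of 0.999 by the same test. The part of the dissection in the values below was not tested.

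The 10 genes lie in 8 clusters on 5 chromosomes of the GRCm38 (mm10) assembly. Magel2 (chr7:62377010-62381640, plus strand), Ndn (chr7:62346569-62350262, plus strand) and Snrpn (chr7:59982495-60140219, minus strand) belong to the Prader-Willi cluster, and Peg3 (chr7:6703892-6730431, minus strand) and Cdkn1c (chr7:143458339-143461050, minus strand) lie elsewhere on chromosome 7. Nnat (chr2:157560078-157562522, plus strand) lies inside an intron of Blcap, and Gnas (chr2:174284320-174346744, plus strand) is on the same chromosome. Mest is at chr6:30723547-30748465 on the plus strand, Grb10 at chr11:11930508-12038683 on the minus strand and Dlk1 at chr12:109452823-109463336 on the plus strand.

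The stretches below are shown because they hold a run of 8 letters that recurs upstream of genes from separate clusters among the 10. RefSeq (GRCm38.p6) gave 18 windows of 250 bases upstream of start sites for 9 of the 10 genes, with none for Cdkn1c. The run CGCATGCG, which reads the same on both strands, is the core of the sequence bound by the transcription factor NRF1. It was picked after the windows had been read. It is in capitals in the 5 windows that hold it, each printed 5′ to 3′ on the strand of its gene.
Nnat, chr2:157560042-157560071, plus strand: tcccccaagcgCGCATGCGcacttaggtgg
Ndn, chr7:62348243-62348272, plus strand: gcttcccaacaCGCATGCGcaatatcgcat
Snrpn, chr7:60450222-60450251, minus strand: gcaaacatccaCGCATGCGtgattggaagg
Snrpn, chr7:60140285-60140314, minus strand: gcaaacatccaCGCATGCGtgatgggaggg
Snrpn, chr7:60048031-60048060, minus strand: gcaaacatgcaCGCATGCGtcgttgaaggt

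These windows belong to Nnat, Ndn and 3 alternative starts of Snrpn, and the run began 25 bases before the start of Nnat, 23 before that of Ndn and 63, 78 and 71 before those of Snrpn. GENCODE M21 starts Ndn farther upstream than RefSeq, so that the stretch of Ndn is in its annotated 5′ UTR there, while the others lie in no exon of their gene. The 3 Snrpn stretches resemble each other around the run, so they are not independent cases. The run occurs in 1.55% of all 32851 upstream windows. The hexamer TGCCGC, bound by the imprint-keeping factor ZFP57 when methylated, was searched on both strands and found in 2 of the 18 windows, which overlap each other upstream of Mest, against 8.68% of all windows. A match is a description of letters and not a site. Upstream CG content ranged widely, from 2 CG pairs in a window of Snrpn to 40 in a window of Grb10, beside a median of 6 over all windows.

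The levels of the 10 genes relative to each other were compared on the FPKM scale, which divides by transcript length. Gnas, which encodes the stimulatory G protein alpha subunit that couples melanocortin and other receptors to cAMP, had the highest mean level, 1811 ± 311 FPKM (SD, n = 6). This value is of the whole gene, whose upstream windows begin at positions from chr2:174284070 to chr2:174329756, and its transcripts were not told apart. Nnat, a small membrane protein gene of neuroendocrine cells, followed at 1757 ± 284 FPKM. These 2 did not differ beyond their spread, since Gnas was above Nnat in 4 of 6 samples. Snrpn, a core protein of the spliceosome, came next at 737 ± 121 FPKM, below Nnat and above Ndn in every sample and without overlap. Ndn, the MAGE family protein necdin, stood at 279 ± 33.4 FPKM and Peg3, a zinc finger protein, at 202 ± 62.1 FPKM. Their ranges overlapped, and Ndn was above Peg3 in 5 of 6 samples. Dlk1, a transmembrane protein related to Notch ligands, had 61.9 ± 11.3 FPKM, clear of Peg3 above it and Mest below it.

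The 4 genes with the lowest levels kept their order in each of the 6 samples although the ranges of neighbours overlapped. Mest, an alpha/beta hydrolase family protein, had 30.2 ± 6.68 FPKM. Grb10, an adaptor that restrains insulin and growth factor receptors, had 22.1 ± 4.96 FPKM. Magel2, the MAGE family partner of ubiquitin ligases in the Prader-Willi cluster, had 18.6 ± 4.66 FPKM and Cdkn1c, the cell cycle inhibitor p57, had 10.3 ± 4.25 FPKM. Among all genes of the table, Gnas held ranks from 15 to 28 by FPKM and Nnat from 15 to 33, while Cdkn1c held ranks from 4794 to 8417. Gnas, Nnat and Snrpn together gave most of the FPKM of the group, with shares of 36.6%, 35.5% and 15.1%.

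**Figure D1:**
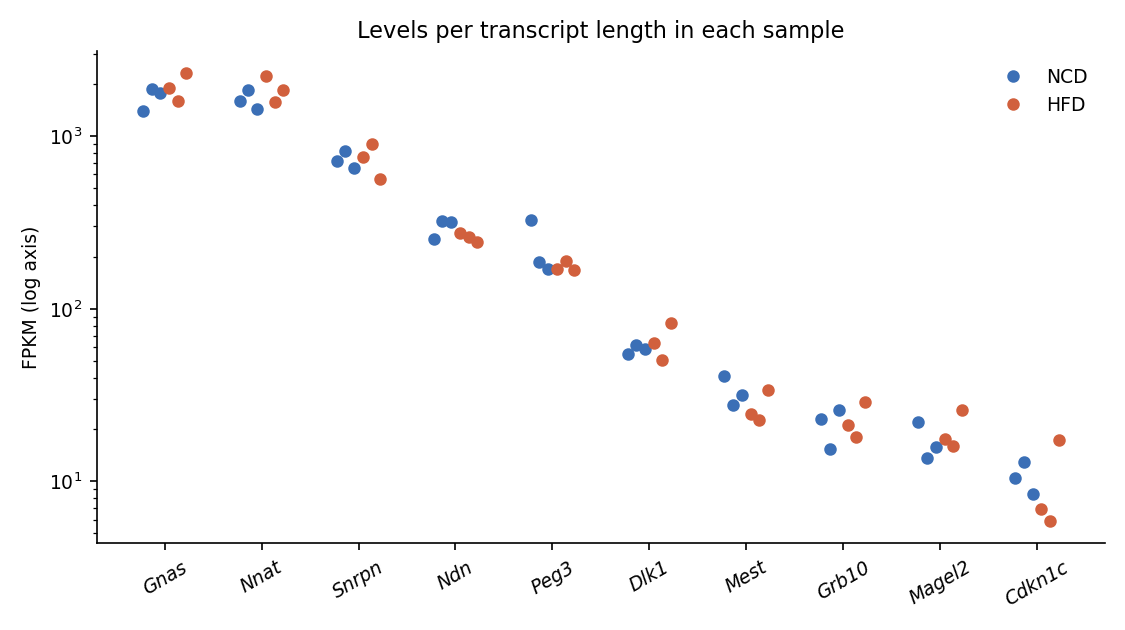
FPKM of each of the 10 genes (log axis) in the 3 NCD samples (blue) and the 3 HFD samples (orange), with genes ordered by their mean over 6 samples. Gnas and Nnat share the top, Cdkn1c is lowest in every sample, and the NCD and HFD points overlap for every gene.

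The question of the comparison was whether the HFD changed these genes in the ARC. All 10 genes passed the filter on low counts, with at least 80 counts in every sample. None of the 10 passed an adjusted p of 0.05 in the fit of all 14188 genes tested by the quasi-likelihood test of edgeR after Benjamini-Hochberg adjustment, where 8 genes did (0.0564%). None had an unadjusted p under 0.05 either, against 326 genes or 2.3% of those tested (1.21% higher and 1.09% lower in HFD). None separated the diets without overlap, against 6.47% of those tested. The fold change was above 0 for 7 of the 10 and below 0 for 3, with a median log2 fold change of 0.07 beside 0.00 over all genes tested. The adjusted p was 0.999 for each of the 10 by the same test.

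In the Prader-Willi cluster, the 3 genes gave fold changes of different sign, each within its error. Magel2 (ENSMUSG00000056972) had 98.5, 64.2 and 75.7 CPM in NCD1, NCD2 and NCD3 and 80.9, 76.6 and 118 CPM in HFD1, HFD2 and HFD3. HFD3 was the highest sample and NCD1 the next, and the other samples lay close together. Magel2 thus had a log2 fold change of 0.20 (SE 0.23, 95% interval -0.31 to 0.71), which was -0.016 without HFD3 and 0.38 without NCD1. Ndn (ENSMUSG00000033585) had 901, 1206 and 1217 CPM in NCD and 1013, 995 and 878 CPM in HFD. NCD1 was as low as the HFD samples, so the diets overlapped. The log2 fold change of Ndn was -0.20 (SE 0.22, 95% interval -0.69 to 0.28). Snrpn (ENSMUSG00000102252) had 1327, 1612 and 1315 CPM in NCD and 1461, 1806 and 1058 CPM in HFD. Both the highest and the lowest sample were on HFD. Snrpn thus had a log2 fold change of 0.02 (SE 0.25, 95% interval -0.52 to 0.56), and it lay below 0 without NCD1, NCD3 or HFD2, at the lowest -0.17 without HFD2.

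Among the genes tied to growth and signalling, Dlk1 had the largest fold change of the 10. Dlk1 (ENSMUSG00000040856) had 129, 201 and 228 CPM in NCD and 211, 154 and 308 CPM in HFD. HFD3 stood above the rest and NCD1 below, with the other 4 samples mixed. The log2 fold change of Dlk1 was 0.27 (SE 0.28, 95% interval -0.35 to 0.89), and without HFD3 it was -0.03. Grb10 (ENSMUSG00000020176) had 65.9, 64.9 and 108 CPM in NCD and 75.3, 79.6 and 86.7 CPM in HFD. Its HFD samples all lay inside the NCD range, and its log2 fold change was 0.02 (SE 0.23, 95% interval -0.48 to 0.52), and below 0 without NCD1, NCD2 or HFD3, at the lowest -0.12 without NCD1. Gnas (ENSMUSG00000027523) had 2020, 2619 and 2339 CPM in NCD and 2570, 2325 and 2705 CPM in HFD. HFD3 and NCD2 were the highest samples of Gnas, and the log2 fold change was 0.12 (SE 0.22, 95% interval -0.36 to 0.61). Cdkn1c (ENSMUSG00000037664), the least abundant, had 13.3, 20.4 and 12 CPM in NCD and 11.1, 10.1 and 29.7 CPM in HFD. HFD3 was the highest sample of Cdkn1c, before NCD2, and the other HFD samples were the lowest of all 6. For Cdkn1c the log2 fold change was 0.13 (SE 0.39, 95% interval -0.72 to 0.98). Without HFD3 it turned to -0.53, with an unadjusted p of 0.108 in the edgeR fit, and without NCD3 it was -0.0074.

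Peg3, Nnat and Mest completed the group. Peg3 (ENSMUSG00000002265) had 1925, 1431 and 1532 CPM in NCD and 1477, 1486 and 1427 CPM in HFD. NCD1 was the only high sample of Peg3, and the other 5 lay within a narrow band. Peg3 thus had a log2 fold change of -0.16 (SE 0.22, 95% interval -0.64 to 0.33). Nnat (ENSMUSG00000067786) had 1806, 2203 and 1750 CPM in NCD and 2632, 1929 and 2149 CPM in HFD. HFD1 was the highest sample of Nnat, and NCD2 lay above the other HFD samples. For Nnat the log2 fold change was 0.22 (SE 0.23, 95% interval -0.28 to 0.72). Mest (ENSMUSG00000051855) had 92.8, 71.5 and 83.7 CPM in NCD and 62.5, 60.0 and 84.5 CPM in HFD. HFD1 and HFD2 were the lowest samples of Mest, but HFD3 was above 2 of the NCD samples. The log2 fold change of Mest was -0.26 (SE 0.21, 95% interval -0.72 to 0.19), with the smallest unadjusted p of the 10, 0.230 by edgeR's quasi-likelihood test.

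**Figure D2:**
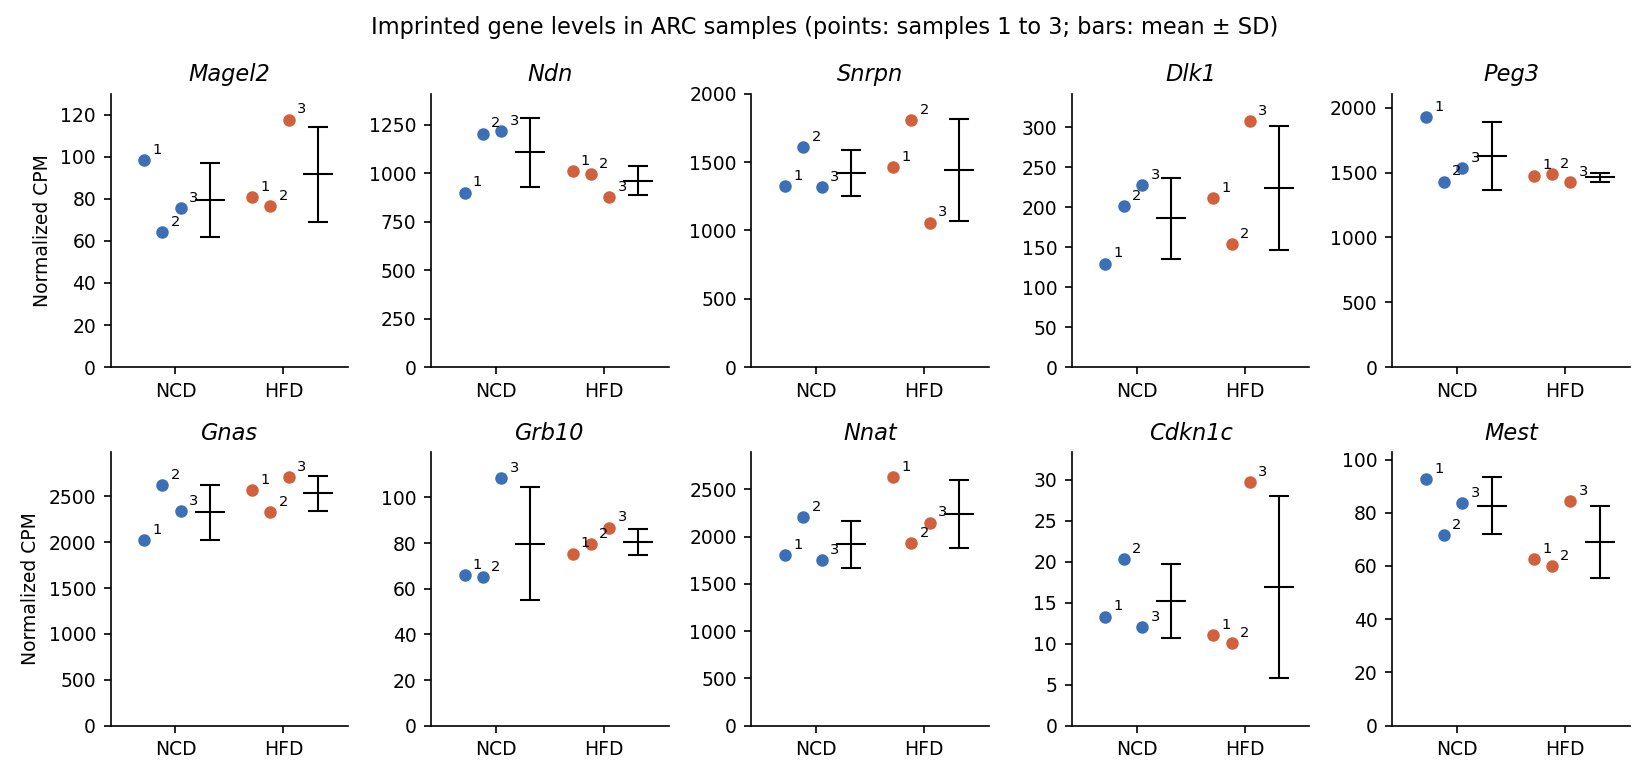
Normalized CPM of the 10 genes in each sample, NCD in blue and HFD in orange, with the sample number beside each point and the mean ± SD (n = 3) as a bar to the right. The diets overlap in all 10 panels, and HFD3 is the highest point for Magel2, Dlk1, Gnas and Cdkn1c.

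A p that misses the threshold does not show that the diets acted alike, so the intervals bound what could have gone undetected. All 10 of the 95% intervals lay within a 2-fold change either way, as did those of 73.7% of all genes tested. This bound did not hold in every other setting for Dlk1 and Cdkn1c: the upper end reached 1.11 on the log2 scale for Dlk1 and 1.39 for Cdkn1c without NCD2, and the lower end of Cdkn1c reached -1.20 without HFD3. The widest was that of Cdkn1c, from 0.607-fold to 1.97-fold. Changes inside these bounds could not be told from no change with 3 samples per diet. The summed CPM of the 10 genes was 8844 ± 578 (SD, n = 3) in NCD and 9119 ± 413 in HFD, a difference smaller than either spread.

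**Figure D3:**
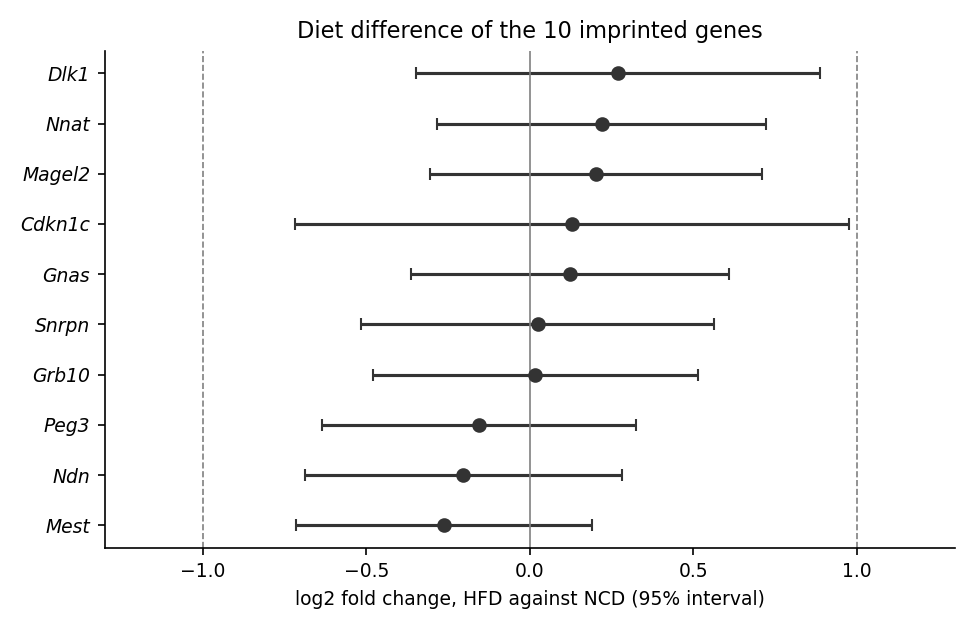
Log2 fold change of HFD against NCD for the 10 genes (points) with 95% intervals from the edgeR fit (bars, n = 3 per diet), ordered by value. The dashed lines mark a 2-fold change, and every interval spans 0 and stays between them.

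Pairs of genes can be compared inside each library, where the scaling factor cancels. For 7 pairs, 6 of neighbours in a cluster and 1 of the relatives Snrpn and Snrpb, the log2 ratio of counts was compared between diets with a two-sided exact permutation test, whose smallest p with 3 samples against 3 is 0.1. No pair separated the diets, and the adjusted p over the 7 was 0.7 for each by this exact test. The log2 ratio of Nnat to Blcap, the gene around it, was 2.82, 3.27 and 3.38 in NCD and 3.67, 3.09 and 4.13 in HFD. HFD3 had the highest ratio and HFD2 fell among the NCD samples, and the difference of means was 0.47 (exact p = 0.3). The log2 ratio of Magel2 to Ndn, its neighbour, was -3.19, -4.23 and -4.0 in NCD and -3.64, -3.70 and -2.90 in HFD. NCD1 lay above HFD1 and HFD2, and the difference was 0.39 (exact p = 0.4). The other differences were -0.17 for Snrpn against Ube3a, the ubiquitin ligase of the Angelman syndrome, -0.08 for Peg3 against Usp29, 0.28 for Mest against Copg2, 0.27 for Grb10 against Ddc and 0.17 for Snrpn against Snrpb. Some ratios still moved with the library total. That of Peg3 to Usp29 rose in the exact order of the totals, from 2.44 in HFD3 to 3.08 in NCD1. That of Nnat to Blcap was highest in HFD3 and lowest in NCD1. In HFD3, NCD3 and HFD1, the smallest libraries, Snrpn to Ube3a stood at 0.724, 0.998 and 1.48, and elsewhere at 1.81 to 1.97. Grb10 to Ddc was 1.13, 0.853 and 0.412 in these libraries and at most 0.0965 elsewhere. Mest to Copg2 was 3.23 in HFD3, 2.74 in NCD3 and between 2.20 and 2.43 elsewhere. Those of Magel2 to Ndn and Snrpn to Snrpb did not follow the order of the totals. The part of library size in the ratios was not tested. Meg3 and Kcnq1ot1, the noncoding partners of Dlk1 and Cdkn1c, were not analysed here.

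Snrpn shares sequence with other genes, which bears on what its count means. Snurf and Gm38393 lie on the same strand and share 216 and 589 exonic bases with it. In NCD1 the counts were 22044 for Snrpn, 283 for Snurf and 124 for Gm38393, and in HFD3 they were 5622, 35 and 52. Snrpn took between 97.7% and 98.8% of the counts of the 3 in every sample, and its fold change with the 3 counts summed, an alternative chosen after seeing the data, was again 0.02. The closest relative elsewhere is Snrpb on chromosome 2, which encodes the widely expressed related protein of the spliceosome core. The coding sequences, 723 bases for Snrpn and 696 for Snrpb in the GENCODE M21 transcripts, were 80.5% identical over 696 aligned bases. The longest run without a difference was 32 bases. The most alike 60 bases, positions 100 to 159 of both, are shown with their 4 differences in capitals, since a read from here can be told apart only by them.
Snrpn: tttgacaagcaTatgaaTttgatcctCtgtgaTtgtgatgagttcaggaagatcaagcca
Snrpb: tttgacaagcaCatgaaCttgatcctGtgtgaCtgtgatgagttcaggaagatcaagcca

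Snrpb had 92.1, 115 and 88.9 CPM in NCD and 100, 89.8 and 72.1 CPM in HFD, far below Snrpn in every sample. The log2 ratio of Snrpn to Snrpb was 3.85, 3.81 and 3.88 in NCD and 3.87, 4.33 and 3.87 in HFD. HFD2 alone stood apart, and the other 5 samples differed by less than 0.1. Across the 8 genes of the spliceosomal Sm core, 7 had a fold change above 0 and 1 below, with a median log2 fold change of 0.25, and none had a p under 0.05. Overlap on opposite strands also matters where strand was not used in counting, which is not stated. Mest and Copg2 share 912 exonic bases, Gnas shares 1469 with Gm20721 and 988 with the antisense Nespas, and Cdkn1c shares 625 with the antisense Gm44732. Counts of these genes may hold reads of their partners.

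Imprinted genes beyond the 10 were taken from a list written from general knowledge. This list of 70 genes, the 10 included, had 57 in the table and 47 that passed the filter, of which 28 had a fold change above 0 and 19 below. The median log2 fold change was 0.02, and 1 of the 47 (2.13%) had a p under 0.05, beside 2.3% of all genes tested. That gene was Copg2, a coat protein of Golgi vesicles and the neighbour of Mest. Copg2 had 18.8, 15.4 and 12.3 CPM in NCD and 11.6, 10.9 and 8.84 CPM in HFD. All HFD samples lay below all NCD samples. Copg2 had a log2 fold change of -0.57 (SE 0.26, 95% interval -1.14 to -0.00). Its unadjusted p was 0.0496 and its adjusted p 0.999 by edgeR's quasi-likelihood test. The p of Copg2 missed 0.05 with normalization to library totals alone, a filter of a mean of 50 counts, the log2 total as a covariate, DESeq2 or limma. With 1 sample left out it stayed under 0.05 without NCD3 and missed it without each of the other 5, where the imprinted gene under 0.05 was Snurf without HFD2, Igf2 without HFD3 and none without NCD1, NCD2 or HFD1.

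Outside the 10 genes, 37 imprinted genes were tested, 21 with a fold change above 0 and 16 below, with a median of 0.01. The lowest were Slc22a3, an organic cation transporter, at -0.66 (SE 0.57), Copg2, and Htr2a, a serotonin receptor, at -0.36 (SE 0.33). The highest were Slc22a18 at 0.48 (SE 0.71), Asb4, a ubiquitin ligase subunit of ARC neurons, at 0.24 (SE 0.23), and Zrsr1, a splicing factor, at 0.23 (SE 0.28). Slc22a3 and Slc22a18 had at most 2.95 CPM in any sample, where errors are wide. Asb4 had 137, 135 and 127 CPM in NCD and 158, 114 and 200 CPM in HFD. HFD3 was the highest sample of Asb4 and HFD2 the lowest. In the Peg10 cluster, to which Asb4 belongs, all 5 genes tested had a fold change above 0, with a median of 0.11, and in the Peg3 cluster all 3 had one below 0, with a median of -0.13, but none of these 8 genes had a p under 0.05.

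**Figure D4:**
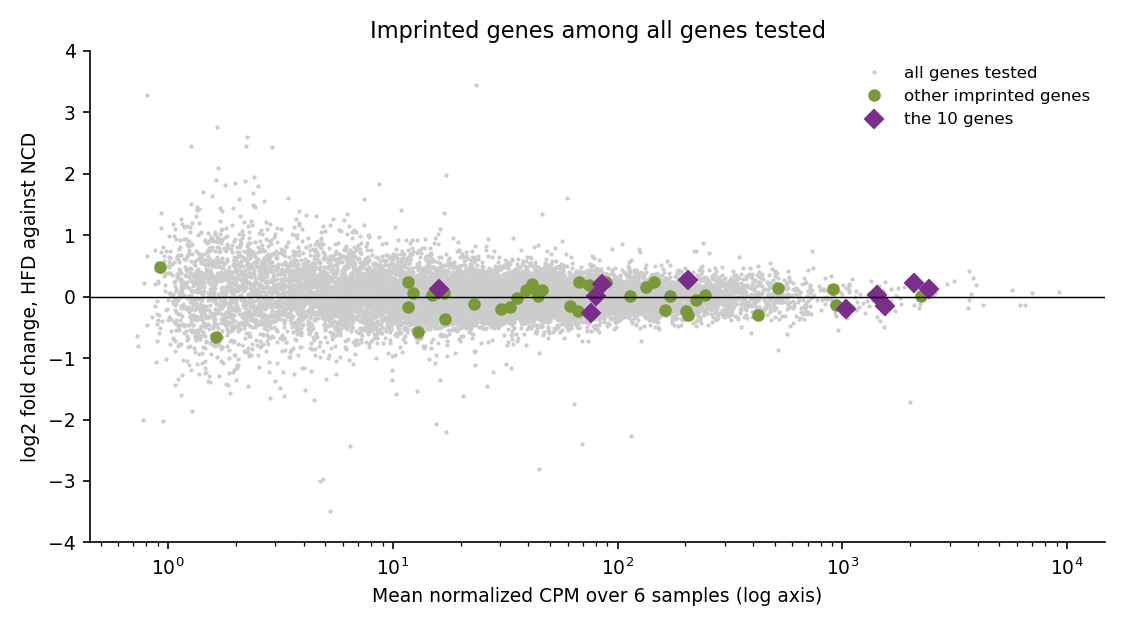
Log2 fold change of HFD against NCD over the mean normalized CPM of 6 samples (log axis), for the 14188 genes tested (grey), the other imprinted genes (green circles) and the 10 genes (purple diamonds). The imprinted genes lie within the grey cloud at every level.

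Relatives of the 10 genes by protein family gave fold changes of both signs. Among the 8 MAGE family genes, with Magel2 and Ndn, 3 had a fold change above 0 and 5 below (median -0.09). The 3 Cip/Kip inhibitors, with Cdkn1c, were all above 0 (median 0.13). Of 9 heterotrimeric G alpha genes, with Gnas, 6 were above 0 and 3 below (median 0.03). The 7 Delta-like Notch ligands, with Dlk1, were split 4 to 3 (median 0.23), and the 4 tested of the Grb7 family and its receptors, with Grb10, were split 3 to 1 (median 0.21). None of these genes had a p under 0.05 in the edgeR fit.

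The spread of the 10 genes among samples was set against library size. Of the 10 genes, 7 had a coefficient of variation of CPM over the 6 samples below the median of all genes tested, 21.4%. That median was taken over genes of all levels and was not matched to the levels of the 10. Gnas was the steadiest at 10.4%, and Dlk1 (30.4%) and Cdkn1c (47.3%) varied most. The CPM of Dlk1 fell as the total count of the library rose, in the order HFD3, NCD3, HFD1, NCD2, HFD2 and NCD1, without an exception and within each diet. Over the 6 samples Pearson's r of log2 CPM against the log2 total was -0.967 (exact permutation p = 0.00556, 0.0556 adjusted over the 10 genes) and Spearman's rho was -1 (exact permutation p = 0.00278, the smallest it can give, 0.0278 adjusted). Without HFD3 and NCD1, the samples farthest from the median total, r was -0.83. No other of the 10 genes passed a p of 0.05, and for Gnas, Peg3, Nnat, Cdkn1c and Mest the sign of r turned without those 2 samples. The sign held for Snrpn, whose r went from 0.53 to 0.97, and for Grb10, from -0.69 to -0.76. It also held for Magel2, from -0.25 to -0.43, and for Ndn, from -0.08 to -0.37. The relation was not particular to Dlk1, since 15.9% of all genes tested had an r beyond 0.9 in size. The first principal component of all genes, with 45.6% of the variance, also placed the samples in the exact order of their totals. With the total as a covariate the log2 fold change of Dlk1 was -0.11.

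The deposited counts and FPKM together imply a relative transcript length for each sample, as the count divided by the FPKM and by a factor of the sample. The factor was the median of this quotient relative to each gene's mean, over the 8262 genes with at least 100 counts in every sample. It keeps a typical gene near its own mean in every sample, and the library total did not enter it. For Magel2, Ndn and Snrpn this length was the same in every sample to within 0.1% of its mean, and for Nnat it lay at 0.993 of its mean or above in every sample. For Dlk1 it was 0.76, 0.99 and 1.15 of its mean over samples in NCD and 1.03, 0.90 and 1.17 in HFD. It was shortest in the largest library and longest in the smallest, in exactly the inverse order of the totals. For Peg3 it was 0.78, 0.96 and 1.10 in NCD and 1.10, 0.96 and 1.10 in HFD, so that the high value of NCD1 stood at 328 FPKM against at most 190 FPKM in the other samples, a wider gap than in CPM. For Gnas it was 1.11, 1.02 and 0.94 in NCD and 1.01, 1.04 and 0.89 in HFD, in the same order as the totals. This comparison was made after seeing the data, over the 6 genes of the 10 whose implied length had a coefficient of variation above 1%. Against the log2 total, r was -0.966 for Dlk1, -0.924 for Peg3 and 0.982 for Gnas (exact permutation p = 0.00139, 0.00694 and 0.00139, n = 6). The adjusted exact p over the 6 genes was 0.00417 for Dlk1 and Gnas and 0.0139 for Peg3. Spearman's rho was -1, -0.943 and 1 (exact permutation p = 0.00278, 0.0167 and 0.00278, and 0.00833, 0.0333 and 0.00833 adjusted). Without HFD3 and NCD1, r was -0.94, -0.94 and 0.92. Among all genes with at least 100 counts in every sample whose length varied as much, 14.5% had an r beyond 0.9 in size.

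**Figure D5:**
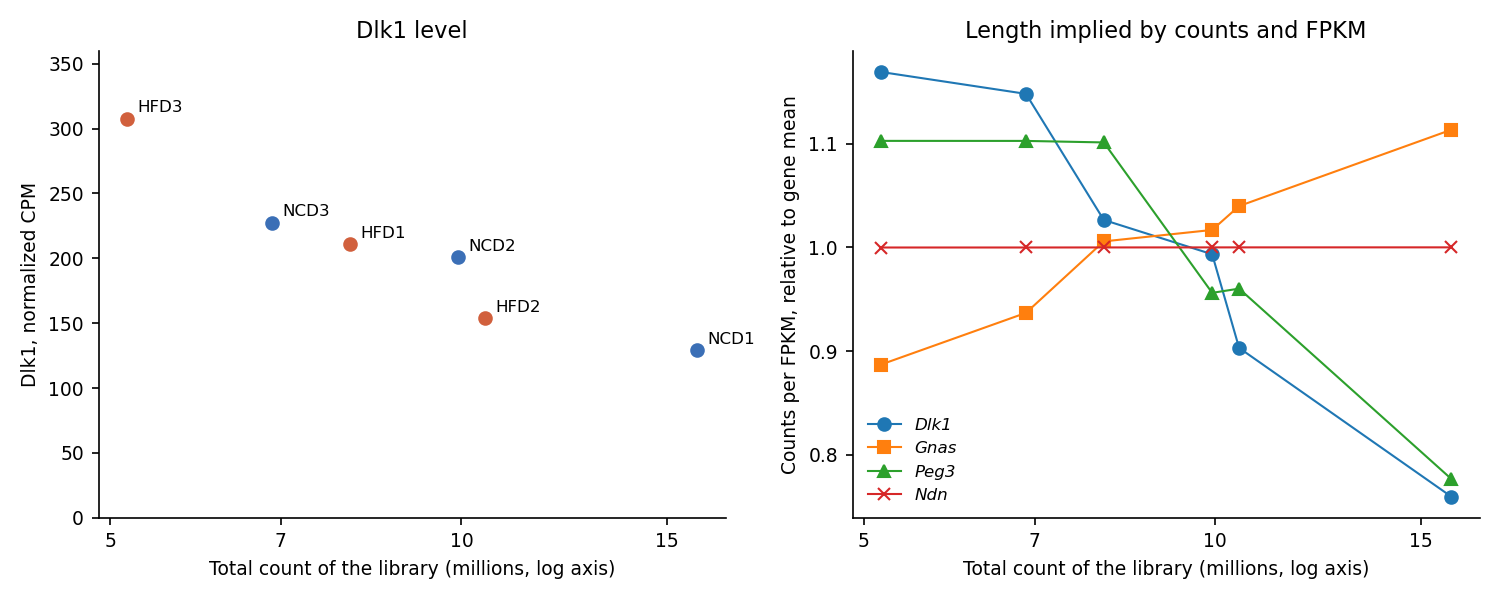
Left, normalized CPM of Dlk1 against the total count of the library (log axis), each sample named. Right, the length implied by counts and FPKM relative to the mean of the gene over 6 samples, for Dlk1, Gnas, Peg3 and Ndn: Dlk1 falls and Gnas climbs with the total, and Ndn stays at 1.

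Cdkn1c was the only one of the 10 genes whose implied length separated the diets, at 0.86, 1.0 and 0.89 in NCD and 1.04, 1.07 and 1.14 in HFD, as it did for 7.03% of the 8262 genes with at least 100 counts in every sample, a floor that Cdkn1c itself misses with its lowest count of 80. Its fold change was 0.13 from counts and -0.20 from FPKM with limma. Against the log2 total, r of its implied length was -0.58 (exact permutation p = 0.236, 0.283 adjusted) and turned to 0.77 without HFD3 and NCD1. For Grb10 the implied length varied by 1.42-fold between samples with no relation to the total (r = -0.02, exact permutation p = 0.965, n = 6, and 0.965 adjusted, with rho = 0.09, exact permutation p = 0.919). For Mest, NCD1 at 0.94 was the low sample and the others lay at 1.01, with r = -0.75 (exact permutation p = 0.0444, 0.0667 adjusted), which turned to 0.35 without HFD3 and NCD1.

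HFD3, the smallest library, also stood apart for some genes of ARC neurons and of other tissue, high for some lists and low for others. Among the 14 ARC neuron markers it was the highest sample of 8, Agrp with 87.3 CPM against at most 61.7 CPM elsewhere and Ghrh, the growth hormone-releasing hormone gene, with 79.2 CPM against at most 57.8 CPM among them. The 14 summed to 3503 CPM in HFD3 and to between 2103 and 3369 CPM in the other samples. Cga, the glycoprotein hormone subunit of the pituitary and pars tuberalis, had 9.39, 4.17 and 14.9 CPM in NCD and 14.7, 10.6 and 48.0 CPM in HFD. Of the 6 pituitary genes listed, Cga, Tshb and Pitx1 passed the filter and summed to 57.9 CPM in HFD3 and to between 5.19 and 19.4 CPM in the other samples, with Cga the most abundant. Lhb, below the filter, had 11 counts in HFD3 and at most 5 elsewhere, and Gh and Prl were at 0 counts in all 6 samples. Col23a1, listed for tanycytes, the ependymal cells that line the ventricle floor, had 127 CPM in HFD3 and at most 62.1 CPM elsewhere. The tanycyte and ependyma list of 9 genes summed to 455 CPM in HFD3 and 430 CPM in HFD1, and to between 236 and 383 CPM in the other samples. Without Col23a1 the sum was 329 CPM in HFD3, 368 CPM in HFD1 and 330 CPM in NCD3, so that HFD3 stood apart for Col23a1 and not for the list. Ccdc153, of ependymal cells, had 57.0 CPM in HFD3, 49.9 CPM in NCD1 and 62.9 to 98.9 CPM in the other samples. HFD3 was also the highest sample of Igf2, an imprinted growth factor of meninges and vessels, with 57.8 CPM against at most 40.3 CPM elsewhere. It was the highest sample of Magel2, Dlk1, Gnas and Cdkn1c, and the part of ARC neurons and of these other cells in those values was not tested. HFD3 lay at an end of the first principal component of all genes. The share of all genes with HFD3 as the highest sample was not counted, so these counts of markers and members are descriptions only. Some lists had their lowest sum in HFD3. General neuron markers summed to 3886 CPM there and to between 4253 and 5040 CPM elsewhere. Astrocyte markers summed to 2189 CPM against at least 2415 CPM, and ventromedial markers to 218 CPM against at least 286 CPM. The list with Avp summed to 1382 CPM against at least 1458 CPM. The microglia sum was highest in HFD3, at 219 CPM against at most 217 CPM. Among 8 general neuron markers, 4 had a fold change above 0 and 4 below, with a median of -0.01 and none with a p under 0.05. Of the 49 genes tested in the other marker lists, 10 (20.4%, against 2.3% of all genes tested) had an unadjusted p under 0.05 in the edgeR fit. Fold changes were above 0 for Trh, Gfap, Col23a1, C1qa, Ly6c1 and Cga and below 0 for Avp, Oxt, Cldn5 and Acta2, and none of the 10 passed the adjusted p.

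Each of the 10 genes had other genes with nearly the same profile over the 6 samples, and these differed from gene to gene. Among 11897 genes averaging 50 counts or more, the profile most like that of Dlk1 was that of Chd5, a chromatin remodeller of neurons (r = 0.999 over 6 samples), and 259 genes had an r above 0.95 with it. Nrgn, the neuronal calmodulin-binding protein neurogranin, came after Mprip. For Snrpn the closest was Psmc4, a proteasome subunit (r = 0.999), before Ldhb, a lactate dehydrogenase subunit, with 104 genes above 0.95. For Peg3 it was D5Ertd579e (r = 0.996), with Fmr1, the gene of the fragile X syndrome, close behind, and 65 genes above 0.95. Nnat had the fewest, with 6 genes above 0.95 and Tmem176b first (r = 0.963). Ndn was closest to the beta-globin gene Hbb-bt (r = 0.988), with 8 genes above 0.95. For Magel2 it was Gm45871 (r = 0.998), for Gnas Poc1b (0.991), for Grb10 Zfp148 (0.986), for Cdkn1c Aifm3 (0.993) and for Mest Jmjd1c (0.985). With 6 points taken from so many genes, and library size shared by all, such values are descriptions only.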

How the data were processed

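The authors enriched mRNA with oligo(dT), sequenced it on a NovaSeq, cleaned the reads, compared them with ribosomal sequences using bowtie2, aligned them with HISAT2 and computed gene values with StringTie and RSEM; mm10 is named in the submitters' processing notes. The deposited count is the read count per gene and sample, not normalized. The deposited FPKM was scaled by the authors to transcript length and mapped reads. The authors' group means, log2 fold change, p-value and FDR were deposited too and were not used. Use of strand is not given in the sources used here.

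Identifiers were matched to GENCODE M21 (22267 of 22322 had a symbol). Almost all are protein-coding. Counts were tested with edgeR 4.0.16 (filterByExpr, TMM, quasi-likelihood test, diet as the only term), in R 4.3.3, and p-values were adjusted over the 14188 genes tested. Alternatives used limma 3.58.1 on log2(FPKM + pseudocount) and DESeq2 1.42.0. Python 3.11.15 and scipy 1.17.1 gave exact permutation tests. The model was tested on simulated data for NCD against HFD. It recovered 36 of 98 genes given a log2 fold change of 1 and 97 of 102 given one of 2. Total counts ran from 5171381 to 15925648, so that 3 counts correspond to 0.180 to 0.564 CPM. This covers counting error only. Ratios used counts within each library.

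The 10 genes and all lists were chosen with earlier results of these data known. Named were the 10 genes, their ratio partners, listed genes with a p under 0.05, the 3 highest and 3 lowest other imprinted genes, and the genes most like each of the 10 by Pearson's r.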

Additional observations from a re-analysis of the deposited data

How the results depend on the processing

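Over 14 other settings, none of 140 values of the 10 genes had a p under 0.05 in edgeR, DESeq2 or limma (smallest 0.0622, for Mest), and Gnas, Mest, Ndn, Nnat and Peg3 kept their sign in all of them. With 1 sample left out these ranged from 0.020 to 0.22 for Gnas, -0.43 to -0.17 for Mest, -0.34 to -0.13 for Ndn, 0.086 to 0.33 for Nnat and -0.24 to -0.030 for Peg3, where the value nearest 0 was without NCD1 for Gnas and Peg3 and without HFD1 for Nnat, and the one farthest from 0 was without NCD1 for Ndn and without HFD3 for Mest. For the other 5 genes, whose fold changes were near 0 or rested on HFD3, 17 values changed sign, and the cause was not tested. With 1 sample left out, log2 fold changes ran up to 0.38 for Magel2, 0.20 for Snrpn, 0.48 for Dlk1, 0.30 for Grb10 and 0.40 for Cdkn1c. Without HFD3 the log2 fold change was -0.016 for Magel2, -0.030 for Dlk1, -0.042 for Grb10 and -0.53 for Cdkn1c. Without NCD1 it was -0.032 for Snrpn and -0.12 for Grb10, without NCD2 -0.11 for Grb10, without NCD3 -0.025 for Snrpn and -0.0074 for Cdkn1c, and without HFD2 -0.17 for Snrpn. With the log2 total as a covariate it was -0.11 for Dlk1, -0.13 for Grb10 and -0.34 for Cdkn1c, and in limma on log2(FPKM + 1) -0.0026 for Snrpn and -0.20 for Cdkn1c. Without HFD3 and NCD1, r against the library total was -0.71 for Peg3, 0.17 for Gnas, 0.15 for Nnat, 0.23 for Cdkn1c and -0.67 for Mest.

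Calls among all genes at an adjusted p under 0.05 were 8, and became 15 with every gene of at least 1 count, 15 with the log2 total as a covariate, 19 with DESeq2 and 5 with limma, and 1 to 16 with 1 sample left out. Genes with p under 0.05 ranged from 197 to 1178 with 1 sample left out. Imprinted genes with p under 0.05 became 0 with library totals alone, a mean of at least 50 counts, DESeq2 or limma, 2 (Igf2 and Zim1) with the covariate and 0 to 1 with 1 sample left out, where the 1 was Copg2 without NCD3, Snurf without HFD2 and Igf2 without HFD3. Intervals of Dlk1 and Cdkn1c passed a 2-fold change in 11 of the 140 values, 4 of Dlk1 and 7 of Cdkn1c, and those of the other 8 genes in none. Ratios without overlap between diets, 0 of 7, became 0 to 2 with 1 sample left out.

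Same-numbered samples correlated at -0.0116, 0.113 and 0.369 in their deviations from the group means, so the numbers were not taken as pairs. In a fit that had this number as a block, 17 genes passed the adjusted p and 589 the unadjusted p, 2 ratios moved the same way in every pair, and the log2 fold change was -0.0032 for Snrpn and -0.015 for Cdkn1c. The lowest count behind any of the 10 genes was 80, for Cdkn1c in NCD3, and the part of depth in its spread was not tested.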
